A study of Mus musculus with 20 samples.

Results

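The glucocorticoid receptor (GR) and the CCAAT/enhancer-binding proteins C/EBPbeta and C/EBPdelta were found together, without Stat5a or RXR, at 1056 regions of the mouse genome 4 hours after adipogenic induction. These are called GR-C/EBP regions here. They were chosen by merging the 4 hours peaks of GR, both C/EBPs, RXR and Stat5a wherever they overlapped by at least 1 bp, and by keeping the merged regions that held all of the first 3 factors and neither of the other two. They made up 2.99% of 35341 merged regions, 25.9% of the 4071 regions with GR, 6.97% of the 15153 regions with both C/EBPs and 32.3% of the 3274 regions with both C/EBPs and GR. The rule used the presence of these 5 factors at 4 hours, so that presence is a description and not a result.

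GR is a nuclear receptor that enters the nucleus and binds DNA when a glucocorticoid such as dexamethasone is present. C/EBPbeta and C/EBPdelta are leucine zipper factors that act early in adipocyte differentiation, ahead of PPARgamma, the nuclear receptor that drives the mature adipocyte programme. RXR is the dimer partner of PPARgamma and other nuclear receptors, and Stat5a is a factor activated by cytokine and growth hormone receptors. Chromatin that DNase I cuts easily, mapped as DNase I hypersensitive sites (DHS), is open chromatin and often marks regulatory elements.

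The series followed 3T3-L1 cells, a clonal mouse preadipocyte line, and every library came from this line. Day 0 was taken 2 days after the cells reached confluence, and all later times followed a cocktail of dexamethasone, insulin, 3-isobutyl-1-methylxanthine (an inhibitor that raises cyclic AMP) and fetal bovine serum. The cocktail was replaced on day 2 by medium with fetal bovine serum and insulin, and later by medium with serum. GR, Stat5a and RXR were mapped by ChIP-seq at 4 hours, C/EBPbeta on day 0, at 2 hours, at 4 hours and on day 2, C/EBPdelta on day 0 and at 4 hours, RNA polymerase II (RNA Pol II) on day 0 and at 4 hours, and PPARgamma on day 2 and day 6. Open chromatin was mapped by DHS-seq 6 times, on day 0, after 2 hours and 4 hours, and on days 1, 2 and 6. GR was mapped at 4 hours alone, so its presence at other times was not analysed here, and the cocktail was given whole, so its agents cannot be told apart.

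The data were 19 peak lists from 1 library each, with 284878 peaks in all and no score, height or read count for any peak. Depth is unknown. The DHS lists differed in length from 9055 peaks at 2 hours to 35389 on day 1, with 31751 at 4 hours. The GR list held 4080 peaks. With 1 library per group there is no replicate check and no test, and the 95% intervals given are exact Clopper-Pearson intervals for a share and Newcombe intervals for a difference of shares. They cover counting over regions in these libraries only, and "absent" means not listed, since a weak site can fall under an unknown threshold.

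Each GR-C/EBP region was in most cases 1 peak of each factor lying on top of the others. Of the 1056 regions, 1026 held exactly 1 peak each of C/EBPbeta, C/EBPdelta and GR, 21 held 2 C/EBPdelta peaks and 1 of each of the other two, and 9 held other combinations, namely 5 with 2 C/EBPbeta peaks, 3 with 2 of each C/EBP and 1 with 2 GR and 2 C/EBPdelta peaks. The middles of the GR and C/EBPbeta peaks lay a median of 50.5 bp apart, those of GR and C/EBPdelta 54.0 bp, and those of the C/EBPs 39.8 bp. GR and C/EBPbeta middles were within 100 bp of each other in 76.7% of the regions. The GR middle lay outside the stretch between the C/EBP middles in 763 regions (72.3%) and within it in 285 (27.0%), with 8 ties. The spacing was much the same where other factors were present too: GR and C/EBPbeta middles lay a median of 49.5 bp apart in the 1005 regions with GR, Stat5a and both C/EBPs, and 46.5 bp in the 938 regions with all 5 factors. Where a factor had several peaks in a region, its widest was used. The rule demands overlap, which limits these distances by construction.

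The regions were wider than the average. Their median width was 811 bp (range 438 to 2036), against 635 bp in the 9846 regions that held both C/EBPs and none of GR, Stat5a and RXR, called C/EBP-only regions here, and 587 bp over all merged regions. Regions with all 5 factors had a median of 945.5 bp. The C/EBPbeta 4 hours peaks themselves were wider in GR-C/EBP regions, with a median of 735 bp against 609 bp in C/EBP-only regions, and so were the C/EBPdelta peaks (589 bp against 515 bp). All 3 factors had narrower peaks in GR-C/EBP regions than in regions with all 5 factors: the GR median was 688 bp against 792 bp, the C/EBPbeta median 735 bp against 820 bp and the C/EBPdelta median 589 bp against 716 bp. Peak width is the one graded value the lists hold, and since it differs between the kinds of region, the comparisons with C/EBP-only regions in 5 lists (DHS at 2 hours and 4 hours, C/EBPbeta on day 0, PPARgamma on day 6 and RNA Pol II at 4 hours) are also given at matched C/EBPbeta peak width. The other comparisons were not.

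GR-C/EBP regions were open early and often. At 2 hours, 39.6% of them (95% interval 36.6 to 42.6) were in the DHS list, against 14.8% of C/EBP-only regions and 15.5% of all merged regions. At 4 hours the shares were 78.7% (76.1 to 81.1) in GR-C/EBP regions, 46.9% in C/EBP-only regions and 41.3% over all regions. The differences from C/EBP-only regions were 24.8 percentage points (21.8 to 27.8) at 2 hours and 31.8 points (29.0 to 34.3) at 4 hours, well beyond counting error. Among regions whose C/EBPbeta 4 hours peak was 600 to 700 bp wide (260 GR-C/EBP and 2952 C/EBP-only regions) they were smaller, 16.6 points (11.1 to 22.6) at 2 hours and 18.1 points (12.0 to 23.6) at 4 hours, with intervals still above 0. The part of peak width in the remaining difference was not tested.

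Before induction the regions were mostly absent from the DHS list. On day 0, 15.3% of GR-C/EBP regions (13.2 to 17.7) were listed, against 10.6% of C/EBP-only regions and 9.22% of all regions. On day 1 the share was 75.4% in GR-C/EBP regions, 46.4% in C/EBP-only regions and 40.7% over all regions, and on day 2 it was 57.3% in GR-C/EBP regions, 38.0% in C/EBP-only regions and 30.8% over all regions. By day 6, the stage labelled mature adipocyte, it was 15.0% in GR-C/EBP regions, beside 11.3% in C/EBP-only regions and 9.54% over all regions, a difference from C/EBP-only regions of 3.71 points (1.59 to 6.07). Openness at these regions was therefore listed mainly between 2 hours and day 2.

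The order of times depends in part on the length of the lists. With every DHS list cut by width to 9055 peaks, GR-C/EBP regions were listed at 14.7% on day 0, 39.6% at 2 hours, 32.2% at 4 hours, 29.9% on day 1, 26.7% on day 2 and 10.9% on day 6. The highest share then fell at 2 hours and not at 4 hours, so the order among 2 hours, 4 hours, day 1 and day 2 cannot be told apart from list length. Day 0 and day 6 had the lowest shares in both the full and the shortened lists. Comparisons of kinds of region within one list do not share that limit in the same way: at 4 hours the difference from C/EBP-only regions was 17.7 points (14.8 to 20.6) in the shortened list, with C/EBP-only regions at 14.5%.

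**Figure D1:**
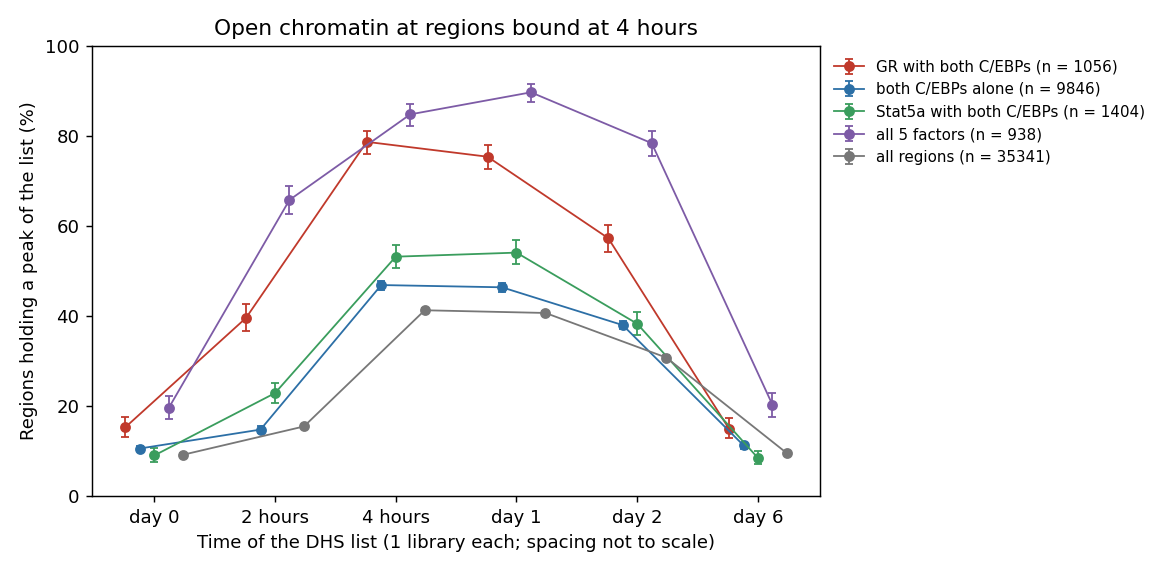
Share of regions (%, vertical axis) in the DHS list of each time (horizontal axis) for 5 kinds of region, with points for shares and bars for exact 95% intervals. GR-C/EBP regions stand at 39.6% at 2 hours and 78.7% at 4 hours, above C/EBP-only regions (14.8% and 46.9%) and below regions with all 5 factors (65.8% and 84.8%), and all kinds lie at 20.3% or less on day 6.

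GR-C/EBP regions were also open more often than the 1404 regions with Stat5a and both C/EBPs but neither GR nor RXR. They were 16.7 points (13.0 to 20.4) higher at 2 hours and 25.5 points (21.8 to 29.0) higher at 4 hours, where the Stat5a regions stood at 22.9% and 53.2%. The Stat5a regions had a median width of 729 bp. Where Stat5a was bound beside GR, the share differed beyond counting error at 2 hours and not in the other 5 DHS lists. GR-C/EBP regions, at 39.6% at 2 hours, were below the 1005 regions with GR, Stat5a and both C/EBPs, at 49.7%, a difference of -10.1 points (-14.3 to -5.78). This comparison was chosen after its values were seen, and its regions had a median width of 878 bp. At the other 5 times the difference lay between -2.93 points on day 1 and 0.714 points on day 0, each with an interval that includes 0. At 4 hours it was -0.809 points (-4.31 to 2.71).

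GR-C/EBP regions were less often open than regions with all 5 factors in each of the 6 DHS lists. The gap was widest at 2 hours, where GR-C/EBP regions were lower by 26.2 points (difference -26.2, interval -30.3 to -21.9), and on day 2, where the difference was -21.1 points (-25.0 to -17.0). It was -6.06 points (-9.42 to -2.66) at 4 hours. The 5-factor regions were also wider, as given above, and the part of width in this gap was not tested.

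Regions without C/EBPdelta differed as well. The 281 regions with GR and C/EBPbeta but no C/EBPdelta, Stat5a or RXR were a second comparison chosen after its values were seen. GR-C/EBP regions were in the DHS list 11.1 points (4.86 to 16.9) more often at 2 hours and 13.9 points (7.99 to 20.1) more often at 4 hours than these regions, which stood at 28.5% and 64.8%. The contrast was larger for C/EBPbeta itself: its day 2 peaks were at 77.2% of GR-C/EBP regions and 21.0% of these regions, a difference of 56.2 points (50.4 to 61.2). Their C/EBPbeta 4 hours peaks were narrower as well, with a median of 610.5 bp.

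The 6 DHS lists can be read as one pattern per region. Most frequent among GR-C/EBP regions was presence at 4 hours, day 1 and day 2 and at no other time. It was found at 168 regions (15.9%, against 9.30% of C/EBP-only and 6.92% of all regions). Next came presence from 2 hours through day 2, at 141 regions (13.4%, against 3.06% of C/EBP-only and 3.79% of all regions). Presence at 4 hours and day 1 was found at 104 regions (9.85%, against 8.05% of C/EBP-only and 6.90% of all regions), and at 4 hours alone at 83 (7.86%, against 7.93% of C/EBP-only and 7.15% of all regions), which is near the general share. The 77 regions listed at all 6 times made up 7.29%, against 5.26% of C/EBP-only and 4.48% of all regions. Among the patterns named here, presence from 2 hours through day 2 exceeded its share in C/EBP-only regions the most. Its share in regions with all 5 factors was higher, at 29.2%.

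**Figure D2:**
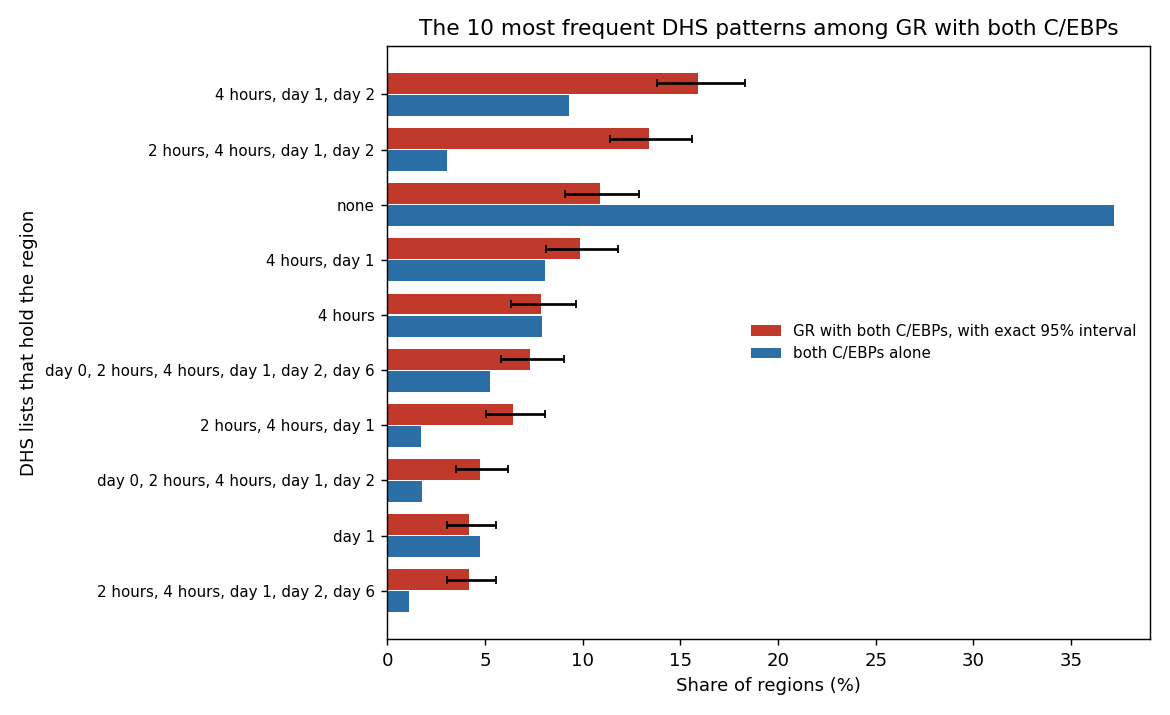
The 10 most frequent combinations of DHS lists among GR-C/EBP regions (vertical axis), with the share of regions (%, horizontal axis) in GR-C/EBP regions (upper bar of each pair, with its exact 95% interval) and in C/EBP-only regions (lower bar). The widest gap is in regions with no DHS list, 10.9% of GR-C/EBP regions against 37.2% of C/EBP-only regions.

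Grouped by first listing, 162 GR-C/EBP regions (15.3%) were open on day 0 and 275 (26.0%) from 2 hours, against 7.05% of C/EBP-only regions and 8.66% of all regions for the 2 hours class. A further 399 (37.8%) were first listed at 4 hours, beside 29.8% of C/EBP-only regions and 24.2% of all regions. Another 105 (9.94%) appeared on day 1 or later, beside 15.4% of C/EBP-only regions and 12.2% of all regions. The last 115 (10.9%) were in no DHS list, against 37.2% of C/EBP-only regions and 45.8% of all regions. Open at 4 hours but not on day 6 were 675 GR-C/EBP regions (63.9%), against 36.3% of C/EBP-only regions and 32.4% of all regions. In regions with all 5 factors the share was 64.6%. These shares depend on how many regions were open at 4 hours at all. Of those open at 4 hours, 675 of 831 GR-C/EBP and 3574 of 4621 C/EBP-only regions were not listed on day 6. Over all regions it was 11448 of 14606. The day 6 list was also shorter, with 11936 peaks against 31751 at 4 hours.

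Regions listed at 2 hours were nearly all still listed at 4 hours, in these and in other kinds of region. Of the 418 GR-C/EBP regions in the 2 hours list, 99.0% were in the 4 hours list, against 97.6% of the C/EBP-only regions and 96.4% of the 5-factor regions listed at 2 hours. On day 1, 397 of the 418 were listed, and on day 2, 75.6%. On day 6 the share was 29.7% (25.3 to 34.3) in GR-C/EBP regions, below the 43.8% (41.3 to 46.4) of C/EBP-only regions and close to the 28.7% of 5-factor regions. Of the regions listed at 2 hours, 34.2% of GR-C/EBP and 52.4% of C/EBP-only regions had already been listed on day 0. Among regions first listed at 2 hours, the day 6 shares were 16.4% in GR-C/EBP, 16.1% in C/EBP-only and 15.2% in 5-factor regions. The 638 GR-C/EBP regions not listed at 2 hours were in the 4 hours list at 65.4% and on day 6 at 5.33%. C/EBP-only regions not listed at 2 hours stood at 38.1% and 5.59%. C/EBPbeta had been present on day 0 at 83.0% of the GR-C/EBP regions open at 2 hours and at 319 of the 638 others. C/EBP-only regions showed the same direction, with 86.6% where listed at 2 hours and 57.6% where not. GR-C/EBP regions also differed in median width, 858.5 bp where listed at 2 hours and 775.5 bp where not.

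C/EBPbeta was at most GR-C/EBP regions before the hormones were added. Its day 0 peaks were at 63.1% (60.1 to 66.0) of GR-C/EBP regions, 61.9% of C/EBP-only regions and 43.8% of all regions, and the difference from C/EBP-only regions was 1.22 points (-1.89 to 4.23), within counting error. That difference moved with width. Between regions of 500 to 1000 bp the difference was -1.78 points (-5.25 to 1.59), and between regions with a C/EBPbeta 4 hours peak of 600 to 700 bp it was -11.1 points (-17.4 to -4.95), with GR-C/EBP regions at 55.8%. With only the wider peaks of each list, those at or above its median width, it was 5.58 points (1.29 to 9.76). No direction can therefore be given for earlier C/EBPbeta binding.

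After induction, C/EBPbeta was more frequent at GR-C/EBP regions than at C/EBP-only regions, but not more than at regions with further factors. At 2 hours its peaks were at 89.1% of GR-C/EBP regions, 73.9% of C/EBP-only regions and 51.1% of all regions, and on day 2 at 77.2% of GR-C/EBP regions, 69.1% of C/EBP-only regions and 45.4% of all regions. The differences from C/EBP-only regions were 15.2 points (13.0 to 17.2) and 8.05 points (5.27 to 10.7). Regions with GR, Stat5a and both C/EBPs stood at 91.5% at 2 hours and 77.2% on day 2. Regions with all 5 factors stood at 97.8% and 92.1%. In 568 GR-C/EBP regions (53.8%, against 45.7% of C/EBP-only and 26.6% of all regions) C/EBPbeta was listed on day 0, at 2 hours and on day 2 beside 4 hours. In 202 (19.1%, against 11.4% of C/EBP-only and 7.73% of all regions) it was listed at 2 hours and day 2 and not on day 0. In 58 (5.49%, against 11.3% of C/EBP-only and 32.6% of all regions) it was listed at 4 hours alone. C/EBPdelta, whose gene is induced by the cocktail, was at 12.8% of GR-C/EBP regions on day 0, against 8.88% of C/EBP-only regions and 6.24% of all regions.

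Earlier C/EBPbeta binding and openness went together inside the GR-C/EBP regions. The 666 regions with a C/EBPbeta peak on day 0 were in the DHS list at 23.6% on day 0, 52.1% at 2 hours and 85.9% at 4 hours. The 390 regions without one were at 1.28%, 18.2% and 66.4% at the same times. The first group had a median width of 830 bp and the second 774.5 bp. Regions with no earlier C/EBPbeta peak were hardly ever listed as open on day 0, and about as rarely in C/EBP-only regions (1.38%).

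GR-C/EBP regions were more open than C/EBP-only regions in both groups. With C/EBPbeta on day 0, the difference was 31.4 points (27.4 to 35.3) at 2 hours and 30.4 points (27.3 to 33.1) at 4 hours, with C/EBP-only regions at 20.7% and 55.5%. Without it, the difference was 13.0 points (9.39 to 17.2) at 2 hours and 33.4 points (28.3 to 38.1) at 4 hours, with C/EBP-only regions at 5.22% and 33.0%. On day 0, regions without earlier C/EBPbeta differed by -0.102 points (-0.951 to 1.61). In this group C/EBPbeta was then listed at 2 hours in 75.1% of GR-C/EBP regions and 45.6% of C/EBP-only regions, a difference of 29.6 points (24.8 to 33.9).

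**Figure D3:**
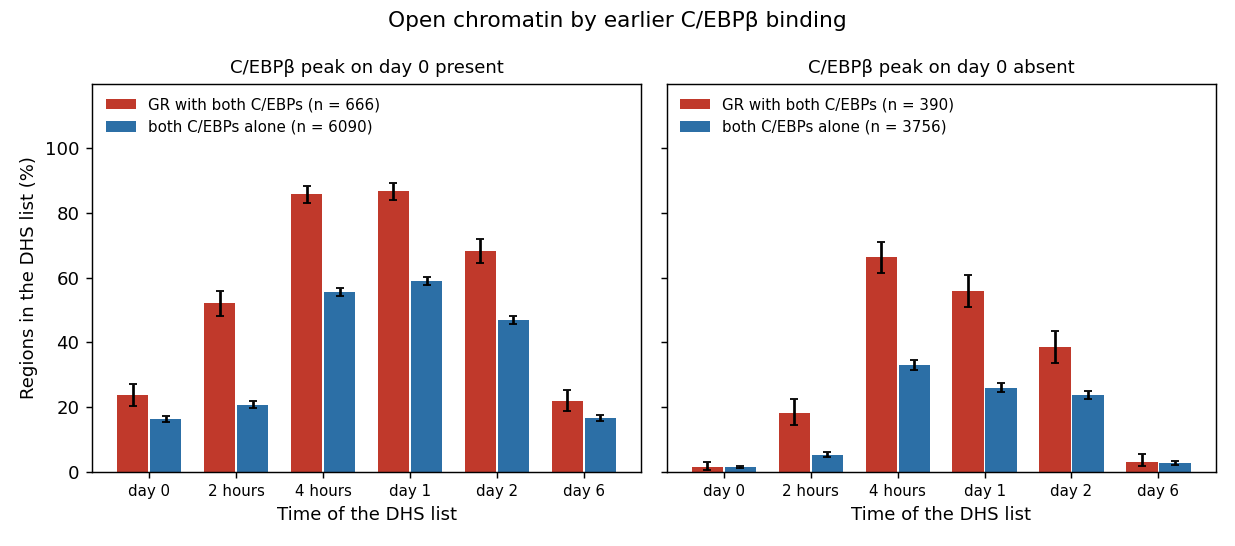
Share of regions (%, vertical axis) in each DHS list (horizontal axis) for regions with (left panel) and without (right panel) a C/EBPbeta peak on day 0, in GR-C/EBP regions (left bar of each pair) and C/EBP-only regions (right bar), with exact 95% intervals. At 4 hours the bars stand at 85.9% and 55.5% in the left panel and at 66.4% and 33.0% in the right one.

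PPARgamma, which binds later in differentiation, was found at a minority of the regions. On day 2 its peaks were at 106 of the 1056 GR-C/EBP regions, 5.17% of C/EBP-only regions and 4.94% of all regions, a difference from C/EBP-only regions of 4.87 points (3.14 to 6.87). On day 6 they were at 11.3% (9.42 to 13.3) of GR-C/EBP regions, 7.46% of C/EBP-only regions and 6.42% of all regions. The day 6 difference from C/EBP-only regions was 3.80 points (1.96 to 5.91). It was 2.07 points (0.620 to 3.81) with the day 6 list cut to the length of the day 2 list, where 6.91% of GR-C/EBP regions held a peak, and 1.76 points (-1.43 to 6.05) at a C/EBPbeta peak width of 600 to 700 bp. Peaks on either day were at 156 regions (14.8%, against 8.00% of all regions) and on both days at 69 (6.53%, against 3.36%). GR-C/EBP regions held PPARgamma less often than regions with all 5 factors, which stood at 25.4% on day 2 and 23.2% on day 6, with differences of -15.3 points (-18.7 to -12.0) and -12.0 points (-15.3 to -8.67).

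PPARgamma was more frequent where chromatin was open on day 6, in GR-C/EBP regions and elsewhere. Of the 158 GR-C/EBP regions in the day 6 DHS list, 56 (35.4%, interval 28.0 to 43.4) held a day 6 PPARgamma peak, against 45 (6.67%) of the 675 regions open at 4 hours and not on day 6. The same shares were 25.8% and 5.12% in C/EBP-only regions, and 108 of 190 and 85 of 606 in regions with all 5 factors. Among GR-C/EBP regions, C/EBPbeta on day 2 was at 94.3% of those open on day 6 and 73.9% of the 675. The regions open on day 6 had a median width of 890 bp and the others 817 bp. Of the 158, 156 had been listed at 4 hours (14.8% of all GR-C/EBP regions, against 8.94% of all merged regions) and 86 on day 0.

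RNA Pol II was found at few regions of any kind. Its day 0 peaks were at 4.17% of GR-C/EBP regions, 8.21% of C/EBP-only regions and 6.19% of all regions, a difference from C/EBP-only regions of -4.04 points (-5.23 to -2.56). The day 0 share was 4.70% with Stat5a and both C/EBPs and 3.38% with GR, Stat5a and both C/EBPs. It was 1.78% with GR and C/EBPbeta and 3.84% with all 5 factors. At 4 hours the shares were 5.78% of GR-C/EBP regions, 7.74% of C/EBP-only regions and 6.12% of all regions, with a difference from C/EBP-only regions of -1.96 points (-3.33 to -0.308). The share in GR-C/EBP regions was thus near that of all regions. It was 1.72 points (0.00626 to 3.54) above the 4.06% of regions with Stat5a and both C/EBPs, an interval that barely excludes 0. The differences from regions with GR, Stat5a and both C/EBPs (4.48%), with GR and C/EBPbeta (3.56%) and with all 5 factors (7.36%) had intervals that include 0. The interval of the 4 hours difference from C/EBP-only regions includes 0 when peaks had to share 50% of the shorter one (-1.45 points, -2.75 to 0.135). It also does with peaks set to 200 bp (-0.983 points, -1.96 to 0.312, GR-C/EBP regions at 3.03%) and at matched C/EBPbeta peak width (-2.34 points, -4.72 to 1.23). The make-up of these few sites differed from that in C/EBP-only regions. RNA Pol II at 4 hours and not on day 0 was found at 44 GR-C/EBP regions (4.17%, against 2.09% of C/EBP-only regions and 1.95% of all regions), at both times at 17 (1.61%, against 5.65% of C/EBP-only regions and 4.17% of all regions), and on day 0 alone at 27 (2.56%, against 2.56% of C/EBP-only regions and 2.03% of all regions). The low share at both times was not particular to GR-C/EBP regions. It was 2.42% with Stat5a and both C/EBPs, 1.99% with GR, Stat5a and both C/EBPs, 1.07% with GR and C/EBPbeta and 1.81% with all 5 factors. RNA Pol II at 4 hours and not on day 0 was at 1.64%, 2.49%, 2.49% and 5.54% of the same kinds.

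**Figure D4:**
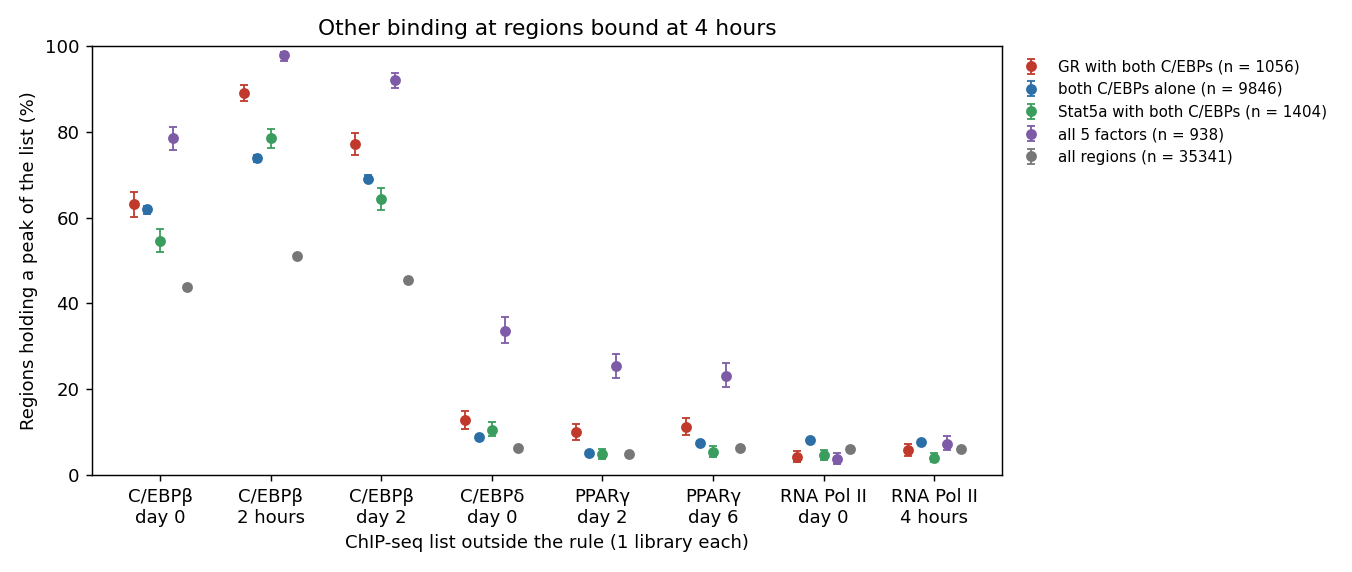
Share of regions (%, vertical axis) with a peak in each ChIP-seq list that the rule did not use (horizontal axis), for 5 kinds of region, with exact 95% intervals. GR-C/EBP regions stand above C/EBP-only regions for C/EBPbeta at 2 hours (89.1% against 73.9%) and PPARgamma on day 6 (11.3% against 7.46%), and below for RNA Pol II on day 0 (4.17% against 8.21%).

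Regions with wider GR peaks were more often open early. Split into 3 classes of 352 regions, with GR peaks of 313 to 628 bp, 628 to 752 bp and 752 to 1537 bp, the regions were in the 2 hours DHS list at 26.7%, 40.9% and 51.1%, and in the 4 hours list at 71.6%, 80.4% and 84.1%. A wider peak can touch another by its size alone. Scored only in the 200 bp around the GR middle, the 2 hours shares were 26.1%, 40.3% and, in the class of the widest GR peaks, 176 of 352. RNA Pol II at 4 hours was at 2.27%, 6.82% and 8.24% over the same classes, but at 2.27%, 6.25% and 5.40% in the 200 bp around the GR middle, so its rise into the widest class was lost there. PPARgamma on day 6 was at 10.2%, 13.4% and 10.2%, with overlapping intervals. C/EBPbeta on day 0 was at 59.7%, 64.8% and 64.8%.

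At 4 hours the middle of open chromatin lay about as near to GR as to C/EBPbeta. At 2 hours, on day 1 and on day 2 its median distance from C/EBPbeta was the smaller one. In the 785 regions with 1 peak of each factor and 1 DHS peak at 4 hours, the middle of the 4 hours DHS peak lay a median of 59.5 bp from the GR middle, 59.0 bp from the C/EBPbeta middle and 67.5 bp from the C/EBPdelta middle. The GR middle was the nearest in 34.4% of these regions, C/EBPbeta in 37.2% and C/EBPdelta in 27.5%. On day 1 the medians were 63.5 bp from GR and 52.0 bp from C/EBPbeta in 755 regions, with GR nearest in 30.3% and C/EBPbeta in 37.6%. On day 2 they were 68.5 bp and 55.5 bp in 576 regions. At 2 hours they were 66.8 bp and 58.8 bp in 400 regions, with GR nearest in 35.5% and C/EBPbeta in 32.2%. The middle of the whole region was as near as C/EBPbeta, at a median of 52.0 bp on day 1 and 55.5 bp on day 2. Nearness to C/EBPbeta therefore cannot be told apart from a central position. C/EBPbeta peaks of day 0 kept to the C/EBP middles: they lay a median of 34.5 bp from the 4 hours C/EBPbeta middle and 53.8 bp from the GR middle. RNA Pol II peaks of 4 hours lay much farther off, a median of 238.5 bp from the GR middle in 53 regions, and PPARgamma peaks of day 6 lay 88.0 bp away in 114.

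**Figure D5:**
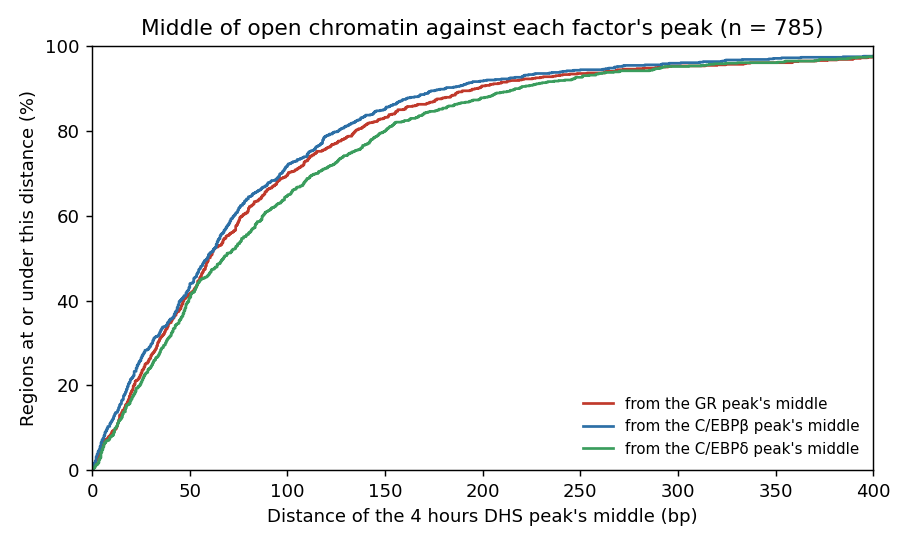
Cumulative share of GR-C/EBP regions (%, vertical axis) by the distance in bp from the middle of the 4 hours DHS peak to the middle of the GR, C/EBPbeta or C/EBPdelta peak (horizontal axis, shown to 400 bp), over 785 regions. The curves run close together, with medians of 59.5, 59.0 and 67.5 bp.

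Over the 14 lists that the rule did not use, a GR-C/EBP region was in a median of 6, against 4 for C/EBP-only regions, 7 for regions with all 5 factors and 3 for all regions. At the lower end, 17 regions (1.61%, against 20.5% of all regions) were in none of the 14. At the upper end, 76 (7.20%, against 3.36% of all regions) were in 10 or more. The one region in all 14 lay on chromosome 11 at 106822533 to 106823365 (all positions are in build mm9, counted from 1). It was open at all 6 times, with C/EBPbeta, C/EBPdelta, PPARgamma and RNA Pol II at every time they were mapped. A region on chromosome 2 at 168276785 to 168277958 was in 13, lacking PPARgamma on day 6, and one on chromosome 19 at 47394073 to 47394847 was also in 13, lacking the day 0 DHS list.

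The widest GR peak, of 1537 bp, lay in a region on chromosome 2 at 113259827 to 113261476. It was absent from the DHS list on day 0, listed at 2 hours, 4 hours, day 1 and day 2, and absent on day 6, with C/EBPbeta at all times and C/EBPdelta on day 0. The next, of 1518 bp, on chromosome 16 at 42676520 to 42678037, was open at 2 hours, 4 hours and day 1 with C/EBPbeta at 2 hours alone among the other times. The third, of 1501 bp, lay on chromosome X at 13045706 to 13047274 and was open from 2 hours through day 2. All of the 5 regions with the widest GR peaks were open at 4 hours and on day 1 and none on day 0 or day 6, and 4 of the 5 were open at 2 hours.

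Wide regions with no open chromatin were found too. A region on chromosome 3 at 149229098 to 149230382, with a GR peak of 1132 bp, was in no DHS list and held C/EBPbeta at 2 hours and on day 2. One on chromosome 4 at 93436968 to 93437861, whose GR peak of 894 bp spanned it whole, was in none of the 14 lists. Of the 115 regions with no DHS list, 30.4% held C/EBPbeta on day 0 and 72.2% at 2 hours, while PPARgamma on day 6 was at 3 (2.61%). In C/EBP-only regions with no DHS list these shares were 46.5%, 62.1% and 1.94%, so that of PPARgamma was near theirs. Among regions with PPARgamma, one on chromosome 2 at 32278958 to 32280947 was open at all 6 times with PPARgamma on both days and RNA Pol II at 4 hours and not on day 0. Another, on chromosome 2 at 134874069 to 134875606, was open on day 1 and day 2 and held PPARgamma on both days.

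At the edge of the rule, the member closest to an excluded factor, on chromosome 10 at 15890607 to 15891426, lay 39 bp from a Stat5a or RXR peak, and 39 members (3.69%) lay within 1000 bp of one. The regions left out by the least overlap with such a peak shared 72 bp with it on chromosome 2 at 12629952 to 12631411, 88 bp on chromosome 17 at 82856655 to 82857933, and 172 bp on chromosome 17 at 32201320 to 32202365. The smallest overlap of GR with a C/EBP peak in a member was 29 bp, on chromosome 2 at 5140078 to 5141371.

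GR-C/EBP regions lay on every chromosome but Y, which held 1 merged region. Counts ran from 14 on X to 104 on chromosome 6, and the share of merged regions from 1.90% (1.04 to 3.17) on X to 3.90% (2.95 to 5.04) on chromosome 16. Their neighbourhood held more GR than that of C/EBP-only regions: another GR region lay within 10 kb of 19.6% of them, against 11.5% of C/EBP-only regions and 12.8% of all regions. Other kinds of region with GR shared this, at 24.4% with GR, Stat5a and both C/EBPs, 28.9% with all 5 factors and 18.9% with GR and C/EBPbeta. Another GR-C/EBP region lay within 10 kb of 6.06%, against 3.28% of C/EBP-only regions and 3.39% of all regions. A GR-C/EBP region was about as often near the same other kinds of region with GR, at 5.77%, 6.29% and 5.69%. A region with all 5 factors lay within 10 kb of 5.40% of GR-C/EBP regions, against 3.13% of C/EBP-only regions and 3.66% of all regions. The share was 5.20% with Stat5a and both C/EBPs and 7.86% with GR, Stat5a and both C/EBPs. It was 6.05% with GR and C/EBPbeta and 11.1% with all 5 factors. A Stat5a peak lay within 10 kb of 23.0% of GR-C/EBP regions, beside 16.8% of C/EBP-only regions and 21.7% of regions with GR and C/EBPbeta. Over all regions the share was 32.8%, a figure that counts regions with Stat5a itself. An RXR peak lay within 10 kb of 8.24% of GR-C/EBP regions, beside 6.05% of C/EBP-only regions and 11.9% of all regions, which again counts regions with RXR. The share was 9.33% with Stat5a and both C/EBPs, 10.9% with GR, Stat5a and both C/EBPs and 9.61% with GR and C/EBPbeta.

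RNA Pol II sites held at both times were less often near GR-C/EBP regions than near C/EBP-only regions. A site with RNA Pol II at both times lay at or within 10 kb of 11.2% (9.34 to 13.2) of GR-C/EBP regions, 17.2% of C/EBP-only regions and 14.7% of all regions. GR-C/EBP regions were not the lowest: the share was 9.40% with Stat5a and both C/EBPs and 7.26% with GR, Stat5a and both C/EBPs. It was 10.7% with GR and C/EBPbeta and 8.42% with all 5 factors. These counts include regions that hold the peak themselves. Among regions that do not, a comparison chosen after seeing the data, the share was again lower in GR-C/EBP regions. It was 9.11% (7.42 to 11.0) there and 11.7% (11.0 to 12.4) in C/EBP-only regions. The share was 7.02% with Stat5a and both C/EBPs and 5.28% with GR, Stat5a and both C/EBPs. It was 9.71% with GR and C/EBPbeta and 6.53% with all 5 factors. No interval of the difference was computed for shares among regions that do not hold the peak. Separate intervals that meet or overlap cannot show that a difference is absent. For PPARgamma sites the separate intervals overlapped among regions that do not hold the peak.

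Sites with RNA Pol II at 4 hours and not day 0 lay at or within 10 kb of 9.38% of GR-C/EBP regions, 8.25% of C/EBP-only regions and 7.47% of all regions. Without regions holding such a site the direction turned, with 5.71% (4.37 to 7.32) in GR-C/EBP regions and 6.54% (6.05 to 7.05) in C/EBP-only regions, and the intervals overlap. Sites with it on day 0 alone lay at or within 10 kb of 8.05% of GR-C/EBP regions, 10.2% of C/EBP-only regions and 8.98% of all regions, and without regions holding such a site the shares were 5.82% (4.47 to 7.43) in GR-C/EBP regions and 7.87% (7.34 to 8.43) in C/EBP-only regions.

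A day 2 PPARgamma peak lay at or within 10 kb of 190 of the 1056 GR-C/EBP regions, 12.5% of C/EBP-only regions and 12.1% of all regions. Without regions that hold the peak, the shares were 8.84% (7.11 to 10.8) in GR-C/EBP regions and 7.68% (7.15 to 8.24) in C/EBP-only regions, with overlapping intervals. For day 6 PPARgamma they were 20.5% of GR-C/EBP regions, 18.1% of C/EBP-only regions and 16.4% of all regions, and without regions that hold the peak the direction turned, with 10.5% (8.57 to 12.6) in GR-C/EBP regions and 11.5% (10.9 to 12.2) in C/EBP-only regions.

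Most GR-C/EBP regions stood alone. With a limit of 50 kb between neighbours, 858 had no other GR-C/EBP region beside them, 144 formed 72 pairs, 48 formed 16 groups of 3, and 6 formed one run on chromosome 12 at 80467574 to 80544181. That run spans 76.6 kb and holds 10 merged regions, 7 of them with GR and 0 with all 5 factors. Of its 6 members, 4 were open at 4 hours, 5 on day 1 and 0 on day 6, and 5 held C/EBPbeta on day 0. The closest pair of members lay on chromosome 5, at 47860505 to 47861172 and 47861784 to 47862778, 611 bp apart. The first was open at all 6 times and the second on day 1 alone, so neighbours did not share a pattern there.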

How the data were processed

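The files deposited by the authors are 19 peak lists, 1 per sample, giving chromosome, start and end of each peak in base pairs, on mouse build mm9 per the submitters' processing notes. Peak caller, threshold and depth are not given in the sources used here. The lists hold positions only, taken as BED with starts counted from 0, and no value that could be normalized. The input control was not analysed.

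Overlapping 4 hours peaks of the 5 factors were merged, and a region counted as held by each of the 14 other lists when a peak of that list overlapped it by 1 bp or more. "All regions" is the background over all 35341 merged regions. The members, comparison regions and lists were chosen with earlier results of these data known. Regions were named by a rule: widest GR peaks, most and fewest other lists, the widest of each time class, closest pairs, and those nearest the limits of the rule. Each was named by position only, since the gene and sequence tables at hand are of another build. On 12000 simulated regions, 2360 of 2360 planted members were recovered, and a planted share of 40.2% was returned as 40.2%. The planted regions lay well apart and their peaks always overlapped, so this checks the code only and not borderline overlaps in the real lists. The tools were SciPy 1.17.1, NumPy 2.4.6 and Matplotlib 3.10.9 under Python 3.11.15.

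Alternatives were peaks joined across gaps up to 500 bp, overlaps of 50% of the shorter peak, peaks set to 200 bp, peaks at or above the median width of each list, no Stat5a or RXR peak within 1000 bp, scoring in the middle 200 bp, regions of 500 to 1000 bp, and lists cut by width to equal length. Matching on C/EBPbeta peak width (600 to 700 bp), scoring in 200 bp at the GR middle and leaving out regions that hold a neighbouring peak themselves were chosen after seeing the data.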

Additional observations from a re-analysis of the deposited data

How the results depend on the processing

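Of 97 alternative values over 11 results, 74 stayed close to the reported value, 21 moved and 2 reversed. The differences from C/EBP-only regions in the DHS lists of 2 hours and 4 hours and in PPARgamma on day 6 were positive in 9 of 9 alternatives, that in RNA Pol II at 4 hours was negative in 9 of 9, and that in C/EBPbeta on day 0 was positive in 7 of 9. With peaks at or above the median width of each list there were 583 members, with 68.6% in the 4 hours DHS list (difference 28.8 points), 59.2% with C/EBPbeta on day 0 (difference 5.58 points) and 4.29% with RNA Pol II at 4 hours. In regions of 500 to 1000 bp, 36.4% were in the 2 hours DHS list (difference 21.6 points), the 4 hours difference was 28.9 points and the C/EBPbeta day 0 difference reversed to -1.78 points. With peaks set to 200 bp, 74.4% were in the 4 hours DHS list and 3.03% held RNA Pol II at 4 hours. With lists cut to equal length, 32.2% were in the 4 hours DHS list (difference 17.7 points) and 6.91% held PPARgamma on day 6. At a C/EBPbeta 4 hours peak of 600 to 700 bp, chosen after seeing the data, 260 members remained by construction. Of these, 31.5% were in the 2 hours DHS list (difference 16.6 points), 70.8% in the 4 hours list (difference 18.1 points) and 55.8% held C/EBPbeta on day 0 (difference reversed to -11.1 points), while the PPARgamma day 6 difference was 1.76 points. The cause of these shifts was not tested. Depth is unknown, and an absent peak may be one under the threshold. No paired analysis was possible because each group holds 1 library and no result comes from a test.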
